A study of Mus musculus with 6 samples.

Results

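The 34 genes described here make, burn, store or sense fatty acids: 5 long-chain acyl-CoA synthetases that activate them, 15 genes of fatty acid oxidation, 6 genes of fatty acid synthesis, 4 regulators (the PPAR receptors and the coactivator PGC-1 alpha) and 4 genes of uptake, storage or known PPAR response. They were chosen by name, all 34 stood among the 48397 genes of the count files, and all 34 passed the filter on low counts. Polyadenylated RNA was sequenced from primary islets of C57B6 mice with a wild-type genotype, which had recovered overnight in culture before treatment. In the control group, 3 libraries came from islets kept with DMSO, and in the prolactin group, 3 libraries came from islets given recombinant mouse prolactin at 500 ng/mL for 24 h. Islets are a mixture of beta cells with alpha, delta, vascular, stromal and immune cells and leftover exocrine cells, so fewer cells of a type and less RNA per cell cannot be told apart. Whether the libraries of a group came from separate animals or cultures is not in the labels, so the p-values rest on a spread between libraries that may be technical.

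Fatty acids enter a cell partly through carriers such as CD36 and are trapped as acyl-CoA by the ACSL enzymes. The acyl-CoA can be esterified and stored in droplets coated by perilipins, or carried into mitochondria by the carnitine shuttle and shortened by successive rounds of dehydrogenation, hydration, a second dehydrogenation and thiolysis. Synthesis runs the other way in the cytosol from acetyl-CoA through malonyl-CoA, and malonyl-CoA inhibits CPT1, the entry step of oxidation. PPAR receptors are nuclear receptors that fatty acids activate and that turn on many genes of this pathway. In beta cells, fatty acid oxidation and lipid signals are known to bear on insulin release, and the enzyme HADH is known for restraining it.

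Assigned reads ranged from 230833584 to 530296257 per library. Levels are in CPM, the count of a gene scaled to a common library total by TMM, and are given as mean ± SD (n = 3 per condition) or per library in the order of replicates 1, 2 and 3. A log2 change compares prolactin with control, and is negative where prolactin is lower. Levels of different genes are compared as RPKM, the CPM per kilobase of gene model. The treatment labels were checked on known lactogen-responsive genes: Cish had a log2 change of 2.28, Socs2 1.23, Prlr 1.06 and Tph1 4.97, all past the threshold. Prolactin replicates 2 and 3 lay closer together than any other pair, with a log2 ratio whose SD over genes of at least 5 CPM was 0.0527, against 0.154 to 0.247 for the other pairs. Their counts still differed by more than sampling noise (chi-square per degree of freedom 7.07, against 85.5 to 228 for the other pairs). This cannot show that the 2 are independent samples, and both mates of a pair may have been counted, which raises the value. They were kept as 2 samples, and fits with them summed are given beside the calls.

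None of the 34 members passed the test between prolactin and control. The test was edgeR's (quasi-likelihood, Benjamini-Hochberg adjustment, threshold 0.05), and 0.757% of the 23924 genes tested passed it. Unadjusted, p lay below 0.05 for 13 of 34 members (14.5% of all genes tested), of which 10 were lower (6.68% of all genes) and 3 higher (7.78%). DESeq2 called 2 members higher (Acsl4 and Cd36) and 0 lower, against 4.1% of genes higher and 5.71% in either direction. No member was called by limma-voom, where 0.74% of genes were. The libraries of the conditions did not overlap for 13 members (21.6% of all genes), 11 lower (10.4%) and 2 higher (11.3%). Of the members 30 averaged at least 5 CPM, and among all such genes 14.9% were lower without overlap and 11.9% higher. The 95% interval of the change lay within 1.5-fold in both directions for 32 of 34 members, with the exception of the low Acacb and Angptl4. The median log2 change of the members was -0.09, against 0.00 for all genes tested and -0.02 for the 11590 genes that averaged at least 5 CPM.

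**Figure D1:**
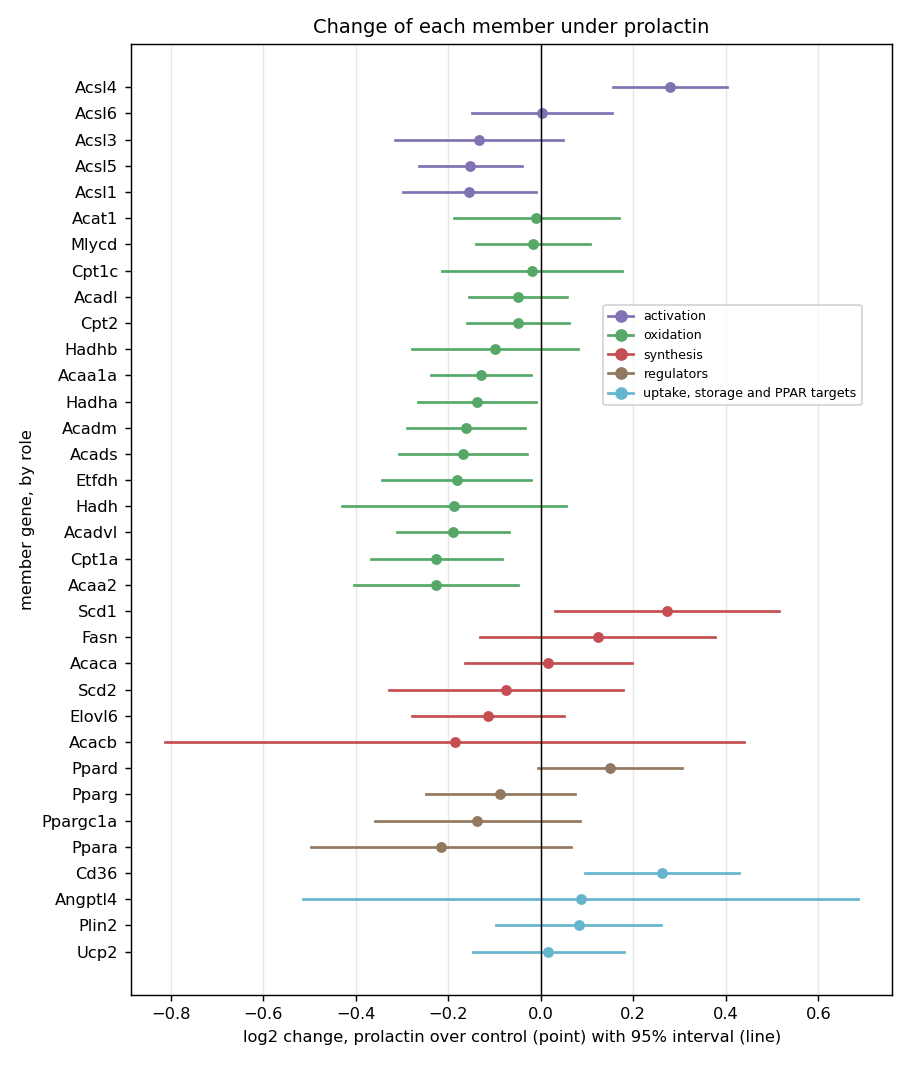
Log2 change of prolactin over control (x axis) for each of the 34 members (y axis), grouped and coloured by role; points are edgeR estimates and lines their 95% intervals over 3 libraries per condition. All 15 oxidation genes lie left of 0, between -0.23 and -0.01, while the 6 synthesis genes lie on both sides, from -0.19 to 0.27.

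By level, the members ranged over more than 2 orders of magnitude. Scd2, a stearoyl-CoA desaturase, was the highest at 62.3 ± 7.1 RPKM (SD over the 6 libraries), followed by Hadh, the short-chain hydroxyacyl-CoA dehydrogenase, at 60.0 ± 7.7 RPKM and Ucp2, a carrier of the mitochondrial inner membrane, at 54.2 ± 3.0 RPKM. The ranges of these 3 overlapped, and the lowest library of Ucp2 stood at 48.8 RPKM. Acsl5 stood at 36.3 ± 2.2 RPKM and the acetyl-CoA acetyltransferase Acat1 at 29.8 ± 2.2 RPKM, and neither overlapped a neighbour. At the other end lay Ppargc1a at 0.534 ± 0.041 RPKM, Angptl4 at 0.338 ± 0.085 RPKM, Ppara at 0.330 ± 0.032 RPKM and Acacb at 0.201 ± 0.064 RPKM, where the last 3 overlapped in range. By CPM, which does not account for length, 3 of the 5 highest members were the same and 10 of 34 members moved by over 5 places in the order.

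**Figure D2:**
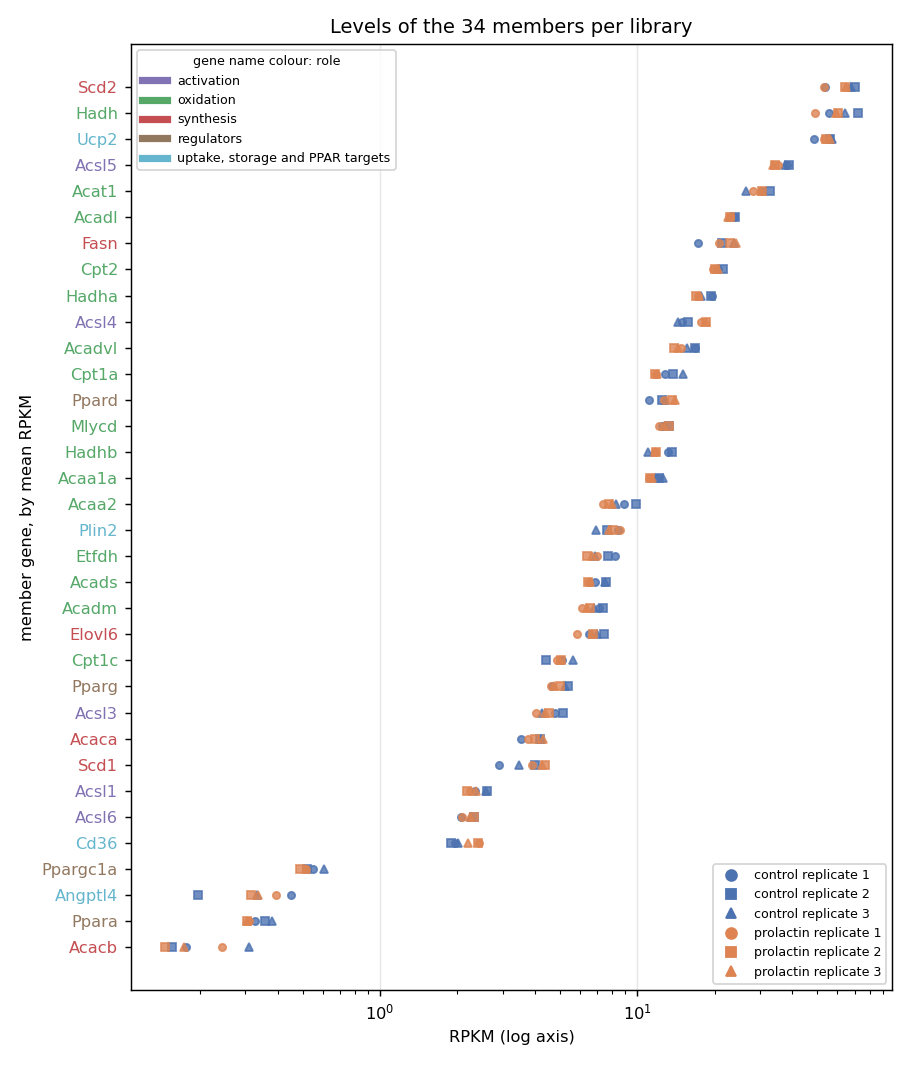
RPKM on a log axis (x) of each member (y, ordered by mean RPKM, names coloured by role) in the 6 libraries, with blue for control, orange for prolactin and a marker shape per replicate number. Scd2, Hadh and Ucp2 are highest, and Ppargc1a, Angptl4, Ppara and Acacb form a group under 1 RPKM.

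None of the 5 activation genes passed the test, and their log2 changes ran from -0.15 to 0.28. Acsl4, whose enzyme prefers arachidonate and other polyunsaturated fatty acids, had the smallest p of the 34 members and was higher in prolactin, whereas Acsl5 and Acsl1, which act on the common long-chain fatty acids, were lower in mean. Acsl4 (chromosome X, 142317993 to 142390535, mm10) stood at 80.8, 85.3 and 77.5 CPM in control and at 96.0, 99.7 and 100.1 CPM in prolactin. The 3 prolactin libraries all lay above the 3 controls. The log2 change was 0.28 (SE 0.054, 95% interval 0.16 to 0.40), and the edgeR adjusted p was 0.0587, just short of the threshold. It passed in 6 of 16 alternative fits. Among these were upper-quartile scaling (adjusted p = 0.0366, with 0.878% of all genes called) and the replicate number as a block (adjusted p = 0.031, 2.5% called). Another left out control replicate 3 (adjusted p = 0.046, 2.36% called). In the other 10 the adjusted p ran from 0.0549 to 0.319. In the authors' deposited table Acsl4 had a log2 change of 0.28 and an adjusted p of 0.0025, the same values as in the DESeq2 fit, which is among those 6. With prolactin replicates 2 and 3 summed as 1 library it was further from the threshold (log2 change 0.27, adjusted p = 0.319).

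Acsl5 (chromosome 19, 55253369 to 55296627) stood at 120.7, 122.5 and 118.0 CPM in control and 111.0, 108.0 and 106.2 CPM in prolactin. The libraries of the conditions did not overlap, but the log2 change of -0.15 did not pass (SE 0.049, edgeR adjusted p = 0.206). Acsl1 had a log2 change of -0.15 (adjusted p = 0.31), Acsl3 -0.13 (adjusted p = 0.495) and Acsl6 0.00 (adjusted p = 0.989), each with overlapping libraries. Per length, Acsl5 made up 61.4%, 60.1% and 61.5% of the RPKM of the 5 synthetases in the control libraries and 57.4%, 55.5% and 55.1% in prolactin. The share of Acsl4 was 23.9%, 24.4% and 23.5% in control and 29.0%, 29.9% and 30.2% in prolactin. The mix of the family thus held more Acsl4 and less Acsl5 in each prolactin library than in any control library, a description with no test. Acsl3 shares 244 exon bases with Utp14b on the same strand, and reads there cannot be assigned to either.

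For Acsl4 the 250 bases before the RefSeq start are shown because it came nearest to the threshold. They lie at chrX:142390536-142390785 (GRCm38.p6, the assembly of mm10, minus strand), are rich in G and C (70.8%) and hold 25 CG dinucleotides.
Acsl4: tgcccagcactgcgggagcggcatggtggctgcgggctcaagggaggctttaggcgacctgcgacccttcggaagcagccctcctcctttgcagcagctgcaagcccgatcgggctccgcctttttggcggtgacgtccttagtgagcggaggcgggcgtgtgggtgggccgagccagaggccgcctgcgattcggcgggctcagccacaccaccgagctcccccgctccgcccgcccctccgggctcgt

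All 15 oxidation genes had negative log2 changes, with a median of -0.14, a difference of about 10% in the middle of the group. None passed edgeR's test. Unadjusted, p fell below 0.05 for 8 of them, all lower (6.68% of all genes tested), and DESeq2 and limma-voom called 0. In 8 of 15 (53.3%) the 3 prolactin libraries all lay below the 3 control libraries, where this held for 10.4% of all genes tested and 14.9% of genes averaging at least 5 CPM, as all 15 did. Of all genes tested 49.9% had a negative change, and of those with at least 5 CPM 55.1%. The genes share libraries and are not independent, so these counts are descriptions. The 8 genes were Cpt1a, Acadvl, Acadl, Acadm, Acads, Hadha, Acaa1a and Acaa2. The number with a negative change was 13 without control replicate 2 or prolactin replicate 1, 14 with upper-quartile scaling and without control replicate 1 or 3, and 15 in the other alternative fits.

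At the entry to mitochondria, Cpt1a, the liver-type carnitine palmitoyltransferase, stood at 55.2, 59.0 and 64.5 CPM in control and 51.0, 50.5 and 51.3 CPM in prolactin. The prolactin libraries lay close together and below each control. The log2 change was -0.23 (SE 0.063, 95% interval -0.37 to -0.08), and the edgeR adjusted p was 0.154; in the authors' deposited table the adjusted p was 0.0623. Cpt1a made up 71.7% ± 2.1 (SD, n = 6) of the RPKM of the 3 CPT1 genes, the brain-type Cpt1c 28.1% ± 2.1 and the muscle-type Cpt1b 0.194% ± 0.075. By condition, the share of Cpt1a was 73.2% ± 2.1 in control and 70.2% ± 0.4 in prolactin, without overlap and with no test. Cpt1c itself went from 14.1 ± 1.6 to 13.9 ± 0.3 CPM (adjusted p = 0.946, log2 change -0.02). Cpt2, which reforms acyl-CoA inside the mitochondrion, went from 49.8 ± 1.4 to 48.1 ± 1.0 CPM, with an interval from -0.16 to 0.06 on the log2 scale. Mlycd, whose enzyme breaks down the CPT1 inhibitor malonyl-CoA, went from 38.1 ± 1.3 to 37.7 ± 1.7 CPM, with an interval from -0.14 to 0.11.

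Among the acyl-CoA dehydrogenases, which take the first electrons from acyl-CoA of decreasing chain length, the very-long-chain Acadvl stood at 45.0, 45.1 and 42.0 CPM in control and 39.8, 37.4 and 38.7 CPM in prolactin. The conditions did not overlap (log2 change -0.19, SE 0.053, edgeR adjusted p = 0.157). Acadvl shares 1151 exon bases, 42.9% of its length, with Dvl2 on the opposite strand, and reads there cannot be told apart without strand. Dvl2 had means of 25.7 CPM (control) and 25.6 CPM (prolactin). The medium-chain Acadm went from 27.7 ± 1.2 to 24.7 ± 0.9 CPM (adjusted p = 0.245, log2 change -0.16) and the short-chain Acads from 16.6 ± 0.9 to 14.8 ± 0.1 CPM (adjusted p = 0.262, log2 change -0.17). The long-chain Acadl was the most abundant of the 4, with 44.5% ± 1.3 of their RPKM. This share was 43.4% ± 0.3 in control and 45.6% ± 0.5 in prolactin, without overlap and with no test. In CPM the libraries of Acadl also did not overlap, although the difference was small (47.8, 48.0 and 46.2 CPM in control, 46.0, 46.1 and 45.1 CPM in prolactin, log2 change -0.05). Etfdh, which passes the electrons on to ubiquinone, went from 56.9 ± 5.0 to 50.2 ± 2.2 CPM with overlapping libraries (log2 change -0.18, adjusted p = 0.288).

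Hadha and Hadhb encode the 2 subunits of the mitochondrial trifunctional protein, which carries out the remaining steps on long chains. Hadha stood at 170.0, 169.6 and 155.1 CPM in control and 150.0, 147.6 and 151.8 CPM in prolactin, without overlap (log2 change -0.14, SE 0.056, edgeR adjusted p = 0.306). Hadhb stood at 87.0, 90.1 and 72.4 CPM in control and 77.3, 78.0 and 77.6 CPM in prolactin. In both genes control replicate 3 was the lowest control, and for Hadhb it lay below the prolactin libraries. Part of the Hadhb sequence, 18.1% of its 50-base windows, also stands in the locus Gm13910, so its counts are uncertain. The 3-ketoacyl-CoA thiolases for the last step were both lower without overlap: the mitochondrial Acaa2 went from 13.7 ± 1.2 to 11.7 ± 0.5 CPM (adjusted p = 0.238, log2 change -0.23), and the peroxisomal Acaa1a from 54.0 ± 1.4 to 49.4 ± 0.7 CPM (adjusted p = 0.269, log2 change -0.13). Acaa1a shares 12.4% of its 50-base windows with its copy Acaa1b, which stood at 0.409 ± 0.045 CPM in control. Acat1, which handles the 4-carbon end product and ketone bodies, went from 112.5 ± 11.8 to 111.7 ± 4.8 CPM (log2 change -0.01).

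Hadh, by far the most abundant oxidation gene, stood at 276.9, 358.3 and 319.6 CPM in control and 245.2, 299.5 and 293.6 CPM in prolactin. The libraries overlapped, and replicate 1 was the lowest of each condition. The log2 change was -0.19 with a wide interval, from -0.43 to 0.05 (edgeR adjusted p = 0.469). The summed CPM of 10 beta-cell markers ran from 117066 to 143551 in control and from 119093 to 124568 in prolactin, and was likewise lowest in replicate 1 of each condition. The summed delta and PP cell markers, 5 genes with 1 called lower and none at 0, ran from 8015 to 8479 CPM in control and from 5654 to 7016 CPM in prolactin, and did not overlap. Gene by gene, 2 of these 5 were lower without overlap (10.4% of all genes tested) and 3 overlapped. Their log2 changes ran from -0.74 to 0.09, with a median of -0.09, so the sum does not describe each marker. The summed stromal markers, given with Pdk4, were higher in prolactin without overlap. The part of cell makeup in the oxidation genes was not tested.

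**Figure D3:**
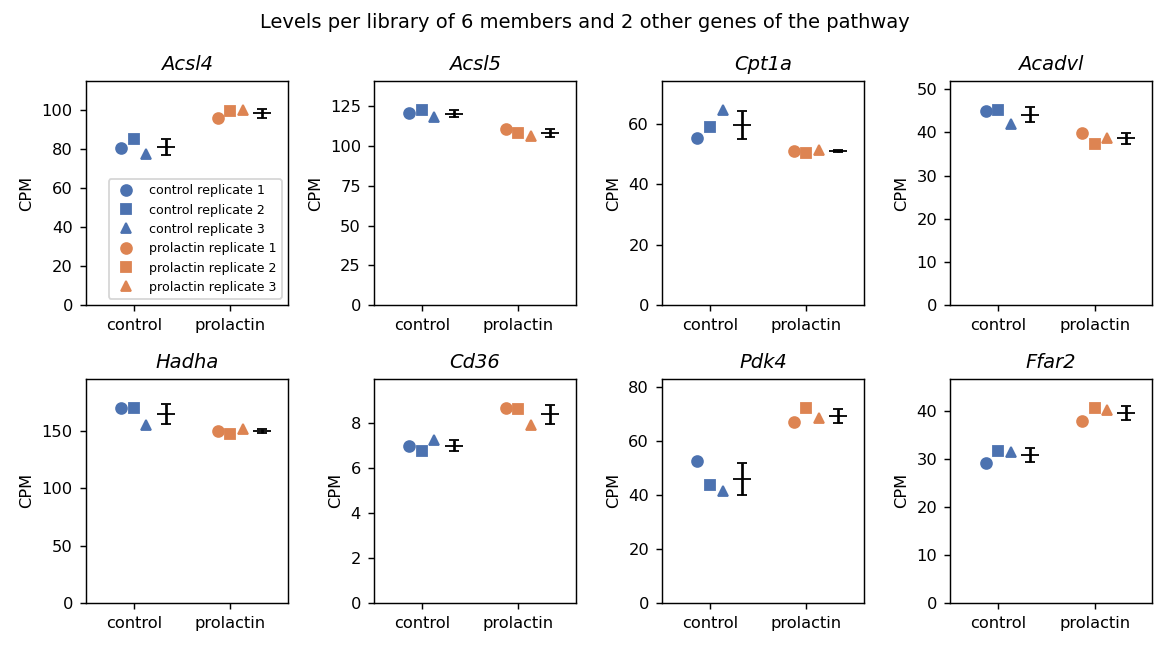
CPM (y axis, from 0) of 6 members (Acsl4, Acsl5, Cpt1a, Acadvl, Hadha and Cd36) and of Pdk4 and Ffar2 in each of 3 control (blue) and 3 prolactin (orange) libraries; black marks give mean ± SD. In each of the 8 panels the conditions do not overlap, with Acsl4, Cd36, Pdk4 and Ffar2 higher in prolactin and the others lower. The 6 members shown are all from the 13 of 34 without overlap (21.6% of all genes tested). The 21 members that overlapped are not shown, and no synthesis gene or regulator is among the panels.

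Stretches before the starts of 3 oxidation genes are shown: those of Cpt1a and Acadvl because each lay lower in the prolactin libraries without overlap, although neither passed the test, and that of Hadhb for the letters it shares with Hadha. Of the 34 members, 29 matched an entry in the RefSeq promoter table (GRCm38.p6), with 34 windows that run from 250 bases before a start to 50 after it. Letters were searched on both strands. The nuclear receptor half-site AGGTCA stood in 11 of the 34 member windows and in 16.3% of all 32851 windows. These 11 belong to 10 members, among them Cpt1a, Acadvl, Acadm, Cd36, Plin2 and Pparg. AGGTCA followed by any 1 base and AGGTCA again, the form PPAR receptors are known to bind, stood in 0 member windows and in 0.0396% of all windows. TCAAGGTCA, the element of estrogen-related receptors, which contains the half-site, stood in a window of Acsl6 and in 0.423% of all. The palindrome TTCNNNGAA, which STAT5 is known to bind, stood in 3 of the 34 member windows (Cpt2, Hadha and Hadhb) and in 8.3% of all. Hadha and Hadhb start close together on opposite strands, and their match is 1 site read from both sides. In the lines below capitals mark the half-site in Cpt1a (chr19:3323051-3323300, plus strand) and Acadvl (chr11:70015429-70015678, minus strand), and the palindrome in Hadhb (chr5:30155118-30155146, plus strand). The Hadhb stretch was kept to 29 bases around the palindrome because it lies wholly within exon sequence of the Hadha model in the count files. A match describes the letters only.
Cpt1a: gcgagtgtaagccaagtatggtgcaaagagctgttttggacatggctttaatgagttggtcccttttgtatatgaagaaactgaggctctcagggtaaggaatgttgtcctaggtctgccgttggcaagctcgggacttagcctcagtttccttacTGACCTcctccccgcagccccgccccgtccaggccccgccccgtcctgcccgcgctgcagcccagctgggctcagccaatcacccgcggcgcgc
Acadvl: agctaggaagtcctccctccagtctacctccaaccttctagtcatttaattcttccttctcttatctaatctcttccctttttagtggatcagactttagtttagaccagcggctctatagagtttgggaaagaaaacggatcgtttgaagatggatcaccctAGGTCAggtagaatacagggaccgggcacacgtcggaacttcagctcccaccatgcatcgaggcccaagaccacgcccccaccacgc
Hadhb: aaaggatgatTTCTCTGAAggtgagacta

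The synthesis genes showed no common direction: 3 of 6 had negative changes and 3 positive ones, with a median log2 change of -0.03, and the libraries of the conditions overlapped for all 6. None passed edgeR's test; p was below 0.05 before adjustment for 1, Scd1, and DESeq2 and limma-voom called 0. Fasn, the fatty acid synthase, stood at 188.8, 234.5 and 260.7 CPM in control and 227.4, 252.0 and 265.4 CPM in prolactin. The log2 change was 0.12 with an interval from -0.13 to 0.38. Leaving out control replicate 1 gave 0.0040, leaving out prolactin replicate 3 gave 0.071, and leaving out control replicate 3 gave 0.23. Scd1 stood at 14.1, 19.3 and 16.8 CPM in control and 18.8, 21.1 and 20.6 CPM in prolactin, where 1 control library lay among the prolactin ones (log2 change 0.27, SE 0.11, adjusted p = 0.291). Its paralog Scd2 stood at 293.9, 383.4 and 368.9 CPM in control and 291.1, 350.9 and 351.6 CPM in prolactin (log2 change -0.07, adjusted p = 0.809). Scd1 made up 5.0%, 5.3% and 4.8% of the RPKM of the 4 desaturases in control and 6.7%, 6.3% and 6.1% in prolactin. Scd2 held 92.6% ± 0.7 over the 6 libraries, with 93.1% ± 0.2 in control and 92.0% ± 0.4 in prolactin. Neither share overlapped between the conditions, a description with no test. The desaturase genes are alike in part, with 4.56% of the 50-base windows of Scd1 found in other genes, so a small share of reads could be divided between them.

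Of the acetyl-CoA carboxylases, which make malonyl-CoA, the cytosolic Acaca held 95.2% ± 1.4 of the pair's RPKM and the mitochondrial Acacb 4.8% ± 1.4. Acaca went from 68.0 ± 6.5 to 68.8 ± 4.6 CPM (log2 change 0.02, interval -0.16 to 0.20), and 29.2% of its 50-base windows also stand in the locus Gm5182. Acacb was at 1.70, 1.49 and 2.99 CPM in control and 2.35, 1.41 and 1.66 CPM in prolactin, a spread too wide for more than an interval from -0.81 to 0.44 on the log2 scale. Elovl6, which elongates the product of Fasn, went from 44.6 ± 3.0 to 41.2 ± 3.2 CPM (adjusted p = 0.524, log2 change -0.11).

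Among the synthesis genes the libraries of 1 condition lay further apart in mean level than the conditions did. In 5 of the 6, all but Acacb, replicate 1 was the lowest library of both conditions, where 18.9% of all genes tested had that order and 3 of 15 oxidation genes did; this order was looked for after the values were seen. Fasn in control replicate 1 was 23.8% below the mean of the other controls, and Scd2 21.9% below. The mean log2 level of the 6 genes lay at -0.20 in control replicate 1 and at 0.13 in control replicate 3, relative to the average of the 6 libraries. The median log2 change of the synthesis genes was -0.11 without control replicate 1 and 0.12 without control replicate 3.

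Set side by side, the mean level of the oxidation genes separated the conditions and those of the synthesis and activation genes did not. By median log2 change oxidation (-0.14) and activation (-0.13) were alike. Of the 5 activation genes 3 had negative changes, and their mean includes Acsl4 at 0.28. How often the mean of other gene groups separates the conditions was not measured. As mean log2(CPM + 1) relative to the mean over libraries, the oxidation genes stood at 0.05, 0.10 and 0.02 in control and -0.08, -0.05 and -0.04 in prolactin, and the conditions did not overlap. The synthesis genes stood at -0.20, 0.04 and 0.13 in control and -0.05, 0.02 and 0.06 in prolactin. The activation genes stood at -0.02, 0.08 and -0.02 in control and -0.05, 0.01 and 0.01 in prolactin, with Acsl4 higher and Acsl5 lower in each prolactin library than in any control. The difference of oxidation minus synthesis was 0.25, 0.06 and -0.10 in control and -0.04, -0.07 and -0.11 in prolactin, so the conditions overlapped. That of oxidation minus activation was 0.07, 0.02 and 0.04 in control and -0.03, -0.05 and -0.05 in prolactin, without overlap. No test was made on these levels, since the members were chosen with earlier results of these data known.

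**Figure D4:**
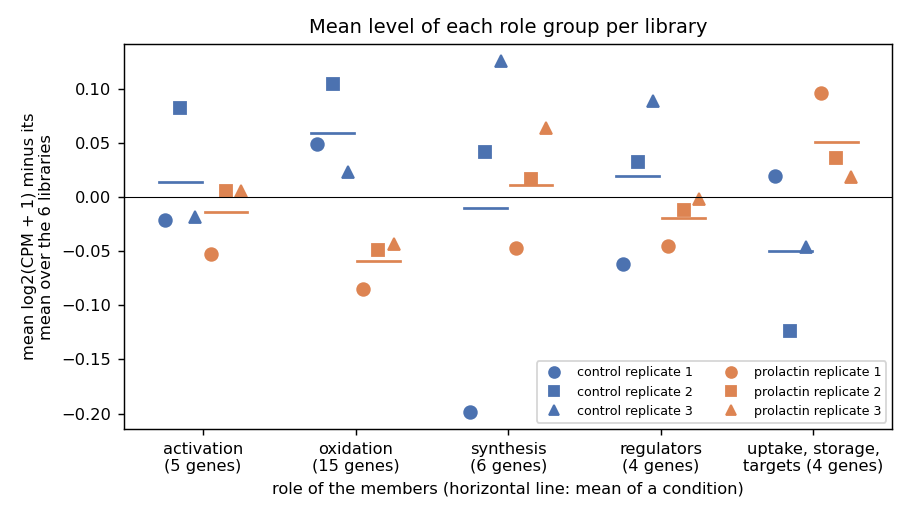
Mean log2(CPM + 1) of the members of each role minus its mean over the 6 libraries (y axis) by role (x axis), for 3 control (blue) and 3 prolactin (orange) libraries; horizontal lines are condition means. The oxidation genes lie above 0 in each control and below 0 in each prolactin library, and the synthesis genes range from -0.20 to 0.13 within control.

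Among the regulators, Ppard was the leading receptor of the PPAR family in these islets and none of the 4 genes passed edgeR's test (before adjustment p was below 0.05 for 0 of them, and DESeq2 and limma-voom called 0). Ppard held 70.8% ± 2.0 of the RPKM of the 3 receptors, Pparg 27.4% ± 1.8 and Ppara 1.8% ± 0.2 (n = 6). By condition, the share of Ppard was 69.0% ± 0.5 in control and 72.5% ± 0.9 in prolactin. That of Pparg was 29.0% ± 0.6 and 25.8% ± 0.9, and that of Ppara 2.02% ± 0.05 and 1.65% ± 0.09. None of these shares overlapped between the conditions, a description with no test. Ppard stood at 51.3, 57.9 and 59.3 CPM in control and 58.6, 63.0 and 65.2 CPM in prolactin, with overlapping libraries (log2 change 0.15, interval -0.01 to 0.31, adjusted p = 0.368). Pparg, best known as the receptor of fat cells, ran from 13.8 to 15.9 CPM in control and from 13.6 to 14.8 CPM in prolactin, with overlap (log2 change -0.09, adjusted p = 0.631). Ppara, known for driving fatty acid oxidation in liver, stood at 1.25, 1.37 and 1.46 CPM in control and 1.18, 1.17 and 1.17 CPM in prolactin, without overlap but at a low level (log2 change -0.22, SE 0.12, adjusted p = 0.474). Ppargc1a, the coactivator of PPAR receptors and of mitochondrial genes, stood at 3.62, 3.43 and 4.01 CPM in control and 3.41, 3.23 and 3.41 CPM in prolactin, also without overlap (log2 change -0.14, adjusted p = 0.576). Its relative Ppargc1b went from 2.93 ± 0.51 to 2.66 ± 0.15 CPM.

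The 4 genes of uptake, storage and PPAR response all had positive changes, from 0.02 to 0.26 on the log2 scale. Of all genes tested 49.9% had negative changes. Over the alternative fits the change of Angptl4 ran from -0.17 to 0.40 and that of Ucp2 from -0.05 to 0.06. None of the 4 passed edgeR's test. Only Cd36 had p below 0.05 before adjustment, and DESeq2 called that gene and limma-voom 0. Cd36, a fatty acid carrier and scavenger receptor, stood at 7.01, 6.78 and 7.24 CPM in control and 8.68, 8.62 and 7.92 CPM in prolactin. All prolactin libraries lay above the controls (log2 change 0.26, SE 0.073). Its adjusted p was 0.156 in edgeR's test. In the DESeq2 fit and in the authors' deposited table, which hold the same values, it was 0.0338. Cd36 is also known in the endothelium of small vessels and in macrophages. The summed CPM of 10 endothelial markers ran from 318.9 to 364.8 in control and from 372.8 to 382.5 in prolactin, with 1 marker called higher and none at 0. That of 10 macrophage markers ran from 113.9 to 118.9 and from 114.3 to 122.2. All 8 fat-cell markers were under 1 CPM in each library. The part of vascular or immune cells in the Cd36 level was not tested. Fabp4, a fatty acid carrier of fat cells, macrophages and endothelium, went from 4.96 ± 0.37 to 6.30 ± 1.29 CPM (adjusted p = 0.304, log2 change 0.34).

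Plin2, the droplet coat protein whose transcript is known to follow fatty acid supply, went from 26.9 ± 2.7 to 28.5 ± 1.5 CPM (log2 change 0.08, interval -0.10 to 0.26), and Plin3 from 17.1 ± 1.5 to 19.5 ± 1.9 CPM. Angptl4, a secreted inhibitor of lipoprotein lipase and a known PPAR target, stood at 1.48, 0.64 and 1.09 CPM in control and 1.29, 1.04 and 1.10 CPM in prolactin. That spread left an interval from -0.51 to 0.69. Ucp2 stood at 340.9, 391.5 and 397.6 CPM in control and 371.0, 380.1 and 391.7 CPM in prolactin, with an interval from -0.15 to 0.18.

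In the rest of the pathway, 2 of 145 tested genes rose and 0 fell in edgeR's test, where 0.652% of all genes tested rose, and 0.94% of those averaging at least 5 CPM. The 2 were Pdk4 and Ffar2. Before adjustment p was below 0.05 for 35 of the 145 (14.5% of all genes tested), of which 18 were higher (7.78%) and 17 lower (6.68%). DESeq2 called 8 higher and 3 lower, where it called 4.1% of genes higher and 5.71% in either direction. From limma-voom came 2 higher and 0 lower, where 0.74% of genes were called. Pdk4, a kinase that shuts pyruvate dehydrogenase and a known PPAR target, stood at 52.5, 43.6 and 41.6 CPM in control and 67.1, 72.2 and 68.4 CPM in prolactin. All prolactin libraries lay above the controls (log2 change 0.59, SE 0.085, adjusted p = 0.0214). It no longer passed when control replicate 2 was left out (adjusted p = 0.0957), or any 1 prolactin library (0.052, 0.134 and 0.108). Ffar2, a receptor for short-chain fatty acids, stood at 29.1, 31.8 and 31.5 CPM in control and 37.9, 40.7 and 40.3 CPM in prolactin (log2 change 0.36, SE 0.057, adjusted p = 0.0301). Its call was lost without any single library except control replicate 3 (adjusted p from 0.0541 to 0.194). With prolactin replicates 2 and 3 summed as 1 library neither passed (adjusted p = 0.127 for Pdk4 and 0.197 for Ffar2). Summed stromal markers, 9 genes with 3 called higher and none at 0, ran from 375.3 to 545.3 CPM in control and from 759.1 to 945.6 CPM in prolactin. Summed alpha-cell markers, 6 genes with 1 called higher and none at 0, ran from 23309 to 37278 and from 34923 to 36278 CPM. Their part in the rises of Pdk4 and Ffar2 was not tested.

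Most of the 30 further oxidation genes had negative changes. None passed edgeR's test. Before adjustment p was below 0.05 for 8 (14.5% of all genes tested), of which 7 were lower (6.68%). DESeq2 called Crot and Abcd2 lower, where it called 5.71% of genes in either direction, and limma-voom called 0. Without control replicate 3, edgeR called Crot, Decr1 and Hsd17b10 lower (adjusted p from 0.0416 to 0.0464). That fit called 2.36% of all genes in either direction, with 234 lower against 25 in the main fit. In all, 28 of 30 had negative changes, as 49.9% of all genes tested did and 55.1% of those averaging at least 5 CPM. In 11 of 30 (36.7%) the prolactin libraries lay below all controls, against 10.4% and 14.9%. The median log2 change of these 30 genes was -0.11. Named after their values were seen, as were Abcd2 and Hsd17b10, they included Decr1, needed for unsaturated fatty acids, from 25.6 to 22.0 CPM in mean (log2 change -0.22, adjusted p = 0.182), the peroxisomal bifunctional enzyme gene Ehhadh, from 25.8 to 22.9 CPM (adjusted p = 0.178, log2 change -0.17), and the peroxisomal carnitine acyltransferase gene Crot, from 51.5 to 42.6 CPM (adjusted p = 0.161, log2 change -0.27). The most abundant of this list per length were Abcd3 (43.4 RPKM), Scp2 (43.2 RPKM) and Etfa (36.8 RPKM), with log2 changes of -0.07, -0.14 and -0.04.

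The 29 tested further synthesis genes had a median log2 change of -0.06, and 21 were negative (49.9% of all genes tested). None passed edgeR's test. Before adjustment p was below 0.05 for 7 (14.5% of all genes), of which 5 were lower (6.68%) and 2 higher (7.78%). Named after their values were seen were Thrsp (log2 change -0.51, adjusted p = 0.0782) and Hacd1 (log2 change 0.41, adjusted p = 0.0592). Thrsp was called lower and Hacd1 higher by DESeq2 (5.71% of all genes called), by edgeR with no filter (1.46%), and by edgeR without control replicate 3 (2.36%). In edgeR Hacd1 alone also passed with at least 1 CPM in 3 libraries (adjusted p = 0.048, 1.51% called) and with the replicate block (adjusted p = 0.0385, 2.5% called). In mean, Thrsp had 3.10 CPM in control and 2.18 in prolactin, and Hacd1 5.46 and 7.25. Acly, which makes cytosolic acetyl-CoA, was more abundant than any member (647.4 ± 47.6 RPKM, log2 change -0.06), ahead of Tecr (95.9 RPKM, -0.07) and the citrate carrier gene Slc25a1 (53.6 RPKM, -0.06). Elovl5 went from 157.3 ± 10.3 to 147.0 ± 10.6 CPM, Scd3 from 3.93 ± 0.10 to 3.43 ± 0.10 CPM and Scd4 from 0.468 ± 0.288 to 0.329 ± 0.023 CPM, none past the threshold. In the list of acyl-CoA activation, transport and hydrolysis, 27 of 33 genes could be tested. Of these 20 had positive changes and 7 negative ones (49.9% of all genes tested), with a median of 0.06. Before adjustment p was below 0.05 for 5, of which 3 were higher (7.78% of all genes) and 2 lower (6.68%). In 6 (22.2%) the prolactin libraries lay above all controls and in 2 below, against 11.3% and 10.4% of all genes. DESeq2 called Acot12 and Acsbg1 higher, where it called 4.1% of all genes higher. For these 2 edgeR gave adjusted p-values of 0.131 and 0.18. Its most abundant genes were the thioesterase gene Acot13 (59.0 RPKM, log2 change -0.21, adjusted p = 0.175), the acyl-CoA carrier gene Dbi (21.1 RPKM, -0.05) and Acsf3 (15.4 RPKM, 0.06).

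Among 32 genes of glyceride synthesis, droplets and lipolysis, 20 had negative changes (49.9% of all genes tested) and the median was -0.04. Before adjustment p was below 0.05 for 4, of which 3 were lower (6.68% of all genes tested) and 1 higher (7.78%). DESeq2, which called 4.1% of all genes higher, called G0s2 higher (adjusted p = 0.087 in edgeR). Without control replicate 3, edgeR called Abhd6 lower, where it called 2.36% of all genes in either direction. Lpl (35.4 RPKM, log2 change -0.06) and Agpat1 (22.0 RPKM, -0.01) were among the most abundant. Among 21 tested PPAR partners and targets, 14 had positive changes and 7 negative ones (49.9% of all genes tested), with a median of 0.03. Before adjustment p was below 0.05 for 7, all higher (7.78% of all genes tested). In 6 (28.6%) the prolactin libraries lay above all controls and in 0 below, against 11.3% and 10.4% of all genes. Beside Pdk4, DESeq2 called Nr1h3 higher (adjusted p = 0.216 in edgeR), where it called 4.1% of all genes higher. Without control replicate 3, edgeR called Pprc1 higher, where it called 1.4% of all genes higher. The corepressor gene Ncor1 (23.2 RPKM, log2 change 0.03) and Pdk4 (16.4 RPKM) were among the highest by level. Where 49.9% of all genes tested had negative changes, all 6 fatty acid receptor genes had positive ones, with a median of 0.27. In 3 of them the prolactin libraries lay above all controls, as in 11.3% of all genes tested and 11.9% of those averaging at least 5 CPM. Before adjustment p was below 0.05 for 4 of them, all higher (7.78% of all genes tested). Ffar1, the receptor through which long-chain fatty acids raise insulin release, was the most abundant (30.5 RPKM, log2 change 0.12, adjusted p = 0.573), ahead of Ffar2 (12.6 RPKM) and Ffar4 (9.29 RPKM, 0.09). DESeq2 also called Gpr119 higher (adjusted p = 0.155 in edgeR), where it called 4.1% of all genes higher. The genes given only for such calls were named after their values were seen.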

How the data were processed

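Per the file headers, the authors made the counts with featureCounts 2.0.3 on GENCODE vM10 gene models, as unnormalised reads summed by gene name; the build is mm10, per the submitters' processing notes. The recorded command sets no strand option. Which aligner was used is not stated. The authors' own comparison, also deposited, gives per gene a log2 fold change, a p-value raw and adjusted, a test statistic (score) and the average signal; the submitters' processing notes name DESeq2 without saying for which step.

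Here the counts were tested with edgeR 4.0.16 in R 4.3.3 by its two-sided quasi-likelihood test of condition alone, after TMM scaling and filterByExpr (minimum count 10, minimum total 15), over 23924 genes, adjusted by Benjamini-Hochberg (threshold 0.05). SE come from the test statistic and 95% intervals from it and the fit's degrees of freedom. Since both mates of a pair may have been counted, no interval from counts alone is given. Gene lengths are those in the files. Near-identical sequence was measured as 50-base windows shared with GENCODE vM21 transcripts of other genes. Of the list entries 1 (Gpat3) matched through an older name. Genes are named as all 34 members, the genes past the threshold and the 3 most abundant per length in each other list, and named paralogs; some genes under this rule are not reported here. The members and lists were chosen with earlier results of these data known. On simulated data the procedure recovered 9.6% of true changes of log2 0.25, 71.2% of 0.5 and 98.4% of 1. Changes of the size seen in the members would thus mostly be missed. Alternatives were other scalings and filters, DESeq2 1.42.0, limma-voom (limma 3.58.1), a replicate block, leaving out each library, summing prolactin replicates 2 and 3, halved counts, and leaving out hormone and mitochondrial genes.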

Additional observations from a re-analysis of the deposited data

How the results depend on the processing

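No member was called lower under any of the 16 alternatives. The count of members called higher (0) was 1 with upper-quartile scaling, with no filter, with at least 1 CPM in 3 libraries and with the replicate block, 2 with DESeq2, and from 0 to 1 over the fits without 1 library. The other pathway genes called higher (2) were 5 with no filter, 8 with DESeq2, 4 with the replicate block, 0 with prolactin replicates 2 and 3 summed, and from 0 to 4 without 1 library (4 without control replicate 3, 0 without control replicate 2 or any prolactin library); those called lower (0) were 1 with no filter, 3 with DESeq2 and from 0 to 5 without 1 library (5 without control replicate 3). Over all genes, 156 were higher and 25 lower. These counts were 470 and 127 with no filter, 776 and 303 with DESeq2, 464 and 134 with the replicate block and 42 and 2 with prolactin replicates 2 and 3 summed. They ran from 39 (without prolactin replicate 2 or 3) to 342 (without control replicate 3) and from 1 (without prolactin replicate 2) to 234 (without control replicate 3) over the fits without 1 library, and 46 were lower with at least 1 CPM in 3 libraries. The median log2 change of the oxidation members stayed between -0.16 and -0.12 in the alternatives, while that of the activation members ran from -0.14 to -0.07 (-0.070 without control replicate 2) and that of the synthesis members from -0.11 to 0.12 without 1 library. The cause of these shifts was not tested. Whether replicate numbers pair the samples is not decided by these data. Deviations of same-numbered libraries correlated at 0.546, 0.327 and 0.094, all positive. Not each library correlated best with its own number: control replicate 2 stood at 0.352 with prolactin replicate 3. Prolactin replicates 2 and 3 lay close together, so these 2 numbers are hard to tell apart. Depth was high in each library, and the number of libraries and their spread limit these comparisons, so a missing call does not show that a level did not change.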
